A study of Mus musculus with 6 samples.

Results

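A set of 8 genes known for higher levels in the hepatocytes around the portal tract was followed in liver RNA from male C57BL/6 mice kept to 71 weeks. They were Cyp2f2, Hsd17b13, Hal, Sds, Sdsl, Gls2, Pigr and Cdh1, taken by gene symbol from a table of 56674 gene rows. All 8 of 8 had a row and all 8 were among the 18284 genes with enough counts to test. One group was fed chow with polypropylene microplastic (PP-MP, 3 samples), and the other group normal chow (control, 3 samples). C57BL/6 is a common inbred strain, and polypropylene is a plastic much used in packaging. The study asked whether prolonged exposure changes hepatic gene expression. The titles and sample characteristics name PP-MP or normal chow, whereas the treatment protocol names PS-MP for all samples, so the groups follow the titles. The sources used here give neither the dose nor the particle size nor how long the chow was fed. The labels do not state that samples came from separate animals, so the p-values describe only the scatter among these 6 samples, which may be technical.

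In the liver lobule, blood flows inward from the portal tract to the central vein, and hepatocytes along that path carry out different tasks. Periportal cells receive the most oxygen and nutrients and are known for the breakdown of amino acids, urea formation and gluconeogenesis, while pericentral cells are known for glutamine synthesis and much of xenobiotic metabolism. The genes followed here cover several of these tasks. Hal, Sds, Sdsl and Gls2 encode enzymes of amino acid breakdown, Cyp2f2 a cytochrome P450, Hsd17b13 a lipid droplet enzyme, Pigr the receptor that carries polymeric immunoglobulins into bile, and Cdh1 the adhesion molecule E-cadherin.

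The 6 libraries of 68357478 to 112566641 counts were compared, as CPM, which give a gene's counts relative to the total of its library after scaling with TMM factors (these correct for differences in library makeup). Markers of hepatocytes were abundant in every library, with the sum of 7 such genes at 78794 to 89209 CPM in PP-MP and 70869 to 81834 CPM in control. Kupffer cell markers summed to 306, 193 and 92.4 CPM in PP-MP 1, 2 and 3 and to 77.2 to 102 CPM in control. Neutrophil markers summed to 23.0, 4.96 and 3.03 CPM in PP-MP 1, 2 and 3 and to at most 1.75 CPM in control. The neutrophil marker Ly6g had 0 counts in PP-MP 3 and in every control library. Acute phase genes stood at 35917 CPM in PP-MP 1, against 7781 and 9282 CPM in the other PP-MP libraries and 7487 to 9354 CPM in control. In the Kupffer cell, neutrophil and acute phase lists 0 genes passed the edgeR threshold. In them 4 of 5 Kupffer cell, 4 of 4 neutrophil and 4 of 9 acute phase genes tested had an unadjusted p under 0.05, all higher. Over all genes tested that share was 13.9% in either direction. DESeq2 called 2 Kupffer cell genes and 1 neutrophil gene, and it gave no adjusted p for some neutrophil and acute phase genes. 18S ribosomal RNA, a measure of library makeup, took 0.655, 0.707 and 0.750% of counts in PP-MP 1, 2 and 3, against 2.92, 11.2 and 1.15% in control 1, 2 and 3, so its share was lower in every PP-MP library. The part of these differences in the values below was not tested. In bulk liver, fewer cells of a type and less RNA per cell cannot be told apart.

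Of the 8 genes, Cyp2f2 alone had PP-MP values that did not overlap with control, and it did not pass the threshold over all genes tested. The promoter windows of Cyp2f2 and of Hal, an enzyme gene whose groups overlapped, are shown to set the gene that stood apart beside one that did not. They run from 250 bases before to 50 bases after the start site, from RefSeq on GRCm38.p6, chr7:27119705-27120004 on the plus strand for Cyp2f2 and chr10:93488518-93488817 on the plus strand for Hal. Capitals mark matches on either strand to 6 short motifs, which were TATAAA (the core of the box motif upstream of many start sites), GTTAAT (part of a hepatocyte factor site), CAAAGT (part of an HNF4A site), TTGCNNAA (C/EBP core), TGACG (part of a CRE) and TGTTCT (part of a glucocorticoid receptor site).

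Cyp2f2: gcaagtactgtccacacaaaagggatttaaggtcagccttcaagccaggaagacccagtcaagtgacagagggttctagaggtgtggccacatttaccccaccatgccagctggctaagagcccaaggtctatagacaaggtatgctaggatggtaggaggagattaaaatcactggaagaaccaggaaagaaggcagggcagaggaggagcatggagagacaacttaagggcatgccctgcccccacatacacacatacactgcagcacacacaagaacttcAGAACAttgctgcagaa

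Hal: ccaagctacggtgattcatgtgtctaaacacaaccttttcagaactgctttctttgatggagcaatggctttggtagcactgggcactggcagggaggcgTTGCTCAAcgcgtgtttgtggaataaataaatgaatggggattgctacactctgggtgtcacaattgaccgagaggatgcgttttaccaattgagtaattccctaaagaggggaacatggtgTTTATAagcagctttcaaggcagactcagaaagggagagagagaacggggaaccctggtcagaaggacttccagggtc

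The Cyp2f2 window held 1 match, a reversed TGTTCT 34 bases after the start site. The Hal window held a reversed TATAAA whose first base lies at −28 and the C/EBP core at −150, and the matches do not overlap. Among 32544 RefSeq windows of the same length, 18.9% held TGTTCT, 13.6% TATAAA, 10.8% TTGCNNAA, 14.4% CAAAGT, 20.9% TGACG and 7.13% GTTAAT on either strand. Windows were matched by symbol for 4 of the 8 genes, and those of Hsd17b13 (CAAAGT and TGACG) and Pigr (TGTTCT) held 2 and 1 matches. These are matches of letters and no evidence of binding.

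Cyp2f2 encodes a P450 that in mice oxidises naphthalene and related aromatic compounds and is abundant both in club cells of the airway and in periportal hepatocytes. It is on chromosome 7, with 11 exonic blocks. Its level stood at 504, 470.0 and 468 CPM in PP-MP 1, 2 and 3, against 769.6, 629 and 693 CPM in control 1, 2 and 3. Every PP-MP library was below every control library, and the PP-MP values lay close together. The group means were 481 ± 20.5 CPM in PP-MP and 697 ± 70.5 CPM in control (SD, n = 3 each). The log2 fold change of −0.54 (SE 0.15, 95% interval −0.90 to −0.17) corresponds to 0.689 of the control level, with an interval of 0.536 to 0.886. It missed the edgeR threshold over all genes (adjusted p = 0.25) and passed that of DESeq2 (adjusted p = 0.016). Scaling by library totals instead of TMM factors moved the median of all genes by 0.23 on the log2 scale. The Cyp2f2 log2 fold change was then −0.31 (edgeR adjusted p = 0.38). The groups then stayed apart only barely, with PP-MP 1 just below control 2 at almost the same level. The 18S ribosomal RNA share separated the groups in the same direction as Cyp2f2, and with mitochondrial, haemoglobin and ribosomal RNA genes left out the Cyp2f2 log2 fold change was −0.51 (edgeR adjusted p = 0.25). Without PP-MP 1 and control 2, the libraries with the highest acute phase and ribosomal RNA levels, it was −0.64 (edgeR adjusted p = 0.17).

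**Figure D1:**
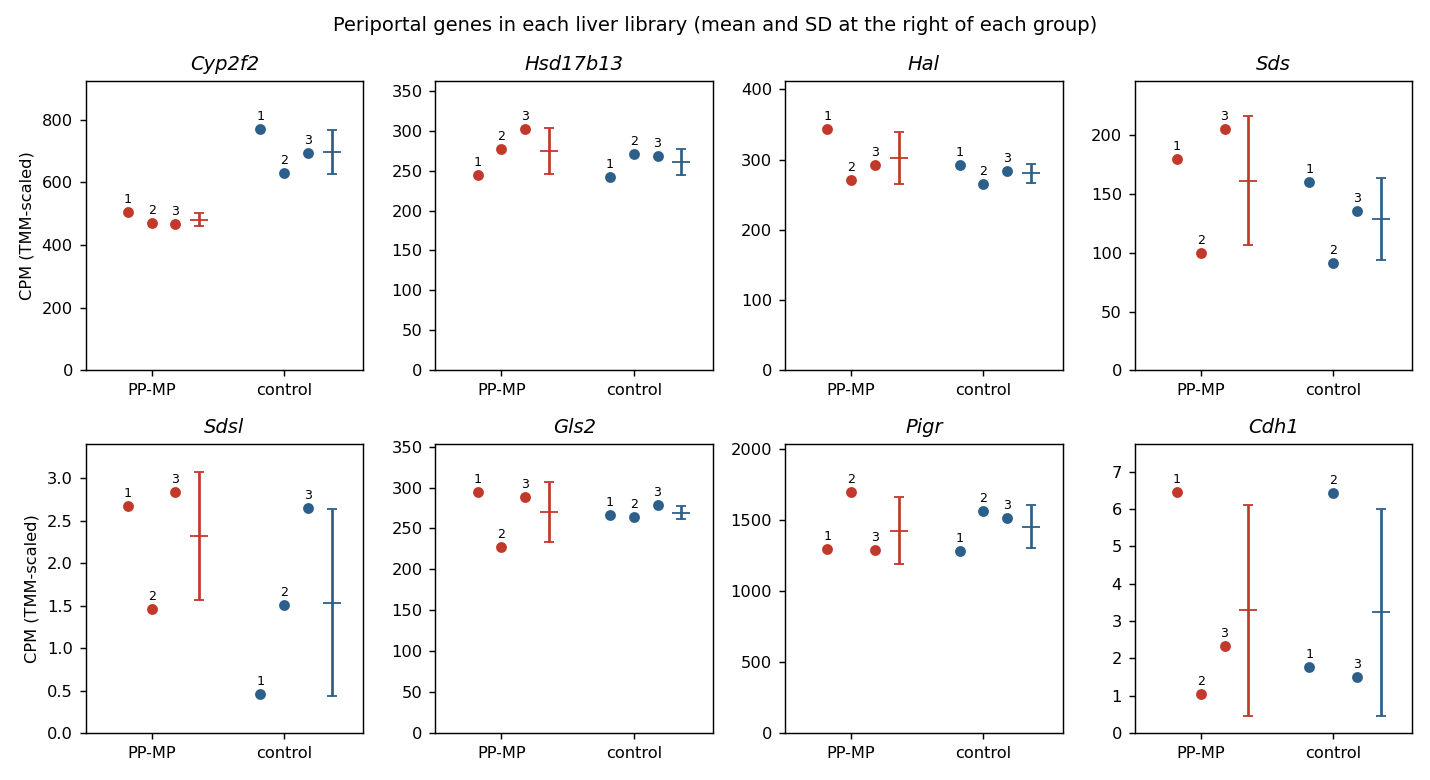
CPM of the 8 periportal genes in each library, with PP-MP left of control in each panel. Points are libraries numbered by replicate, and the bar beside each group is its mean with SD. Cyp2f2 at 468 to 504 CPM in PP-MP lies below its control values of 629 to 769.6 CPM, and the other 7 panels overlap.

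Over all genes these counts were not unusual. With edgeR 0 of the 8 genes were called at an adjusted p under 0.05, against 0.0109% of all genes tested (2 genes), and 1 of 8, Cyp2f2, had an unadjusted p under 0.05, against 13.9% of all genes in either direction and 5.81% in the lower direction. DESeq2 called 1 of 8, against 4.26% of the genes it tested. Groups did not overlap for 1 of 8, against 22.0% of all genes in either direction and 9.79% in the lower direction. Among the 1088 genes with a mean of at least 100 CPM, a limit chosen after the values were seen and one that Cyp2f2 passes, 19.6% were lower in every PP-MP library and the median log2 fold change was −0.18. With library totals 3 of 8 did not overlap, against 27.1% of all genes in either direction. Cyp2f2 was then lower without overlap by a narrow margin, and 2.59% of all genes were lower without overlap. Under TMM scaling, the share of the 8 genes with an unadjusted p under 0.05 or without overlap was near that of the whole table. The shares over all genes apply likewise to the counts in the gene lists that follow.

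A list of 4 genes for proteins that pass electrons towards P450 enzymes was set beside Cyp2f2. Which of them serve Cyp2f2 was not tested. These, the P450 reductase Por, the cytochromes b5 Cyb5a and Cyb5b and the cytochrome b5 reductase Cyb5r3, all had fitted values below 0, with a median log2 fold change of −0.79, against 0.03 over all genes and −0.18 over the genes with a mean of at least 100 CPM, to which all 4 belong. With edgeR 0 of 4 passed the threshold, and 2 of 4 had an unadjusted p under 0.05, both lower. Over all genes that share was 13.9% in either direction and 5.81% in the lower direction. Those 2 of the 4 were also called with DESeq2, against 4.26% of the genes it tested. Cyb5r3 stood at 233, 328 and 317 CPM in PP-MP 1, 2 and 3, against 723, 431 and 599 CPM in control 1, 2 and 3 (log2 fold change −0.998, SE 0.24, edgeR adjusted p = 0.22). Cyb5b stood at 143, 238 and 239 CPM in PP-MP 1, 2 and 3, against 372, 334 and 385 CPM in control 1, 2 and 3 (log2 fold change −0.82, SE 0.23, edgeR adjusted p = 0.25). Neither gene overlapped between the groups, and both were lowest in PP-MP 1. Cyb5a (log2 fold change −0.21, SE 0.20) and Por overlapped. Por had the largest unadjusted edgeR p of the 4, although the list median of −0.79 places its fitted value between those of Cyb5b and Cyb5a. Of all genes 9.79% were lower without overlap, and of those with a mean of at least 100 CPM 19.6% were.

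Cyp2f2 shares exonic positions with Gm15883, a gene model on the opposite strand. Of the 50-base words in its transcripts, 8.997% occur in another gene's transcripts when read on either strand. Gm15883 shared the most of them. Gm15883 stood at 5.003, 4.35 and 4.76 CPM in PP-MP 1, 2 and 3, against 4.26, 2.62 and 2.13 CPM in control 1, 2 and 3. All 3 PP-MP values were above control, opposite in direction to Cyp2f2, and the model missed the edgeR threshold (log2 fold change 0.65, SE 0.29, adjusted p = 0.38). The libraries are directional, but the strand setting of the counting is not stated, so reads of such partners may not have been told apart.

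Hsd17b13 encodes a lipid droplet protein of hepatocytes with retinol dehydrogenase activity. It lies on chromosome 5 and stood at 244, 277 and 302 CPM in PP-MP 1, 2 and 3, against 242, 271 and 269 CPM in control 1, 2 and 3. The groups overlapped, and the lowest library of each was replicate 1. Means were 274 ± 28.8 CPM in PP-MP and 260.5 ± 16.2 CPM in control (SD, n = 3 each), a log2 fold change of 0.08 (SE 0.15, 95% interval −0.28 to 0.43, edgeR adjusted p = 0.84). The interval lies within 2-fold. With library totals the log2 fold change was 0.31 (edgeR adjusted p = 0.31), a move as large as the shift of 0.23 in the median of all genes, and the groups then did not overlap, as for the 24.5% of all genes that were higher without overlap under that scaling.

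Its close relative Hsd17b11, also found on lipid droplets, had lower values. Hsd17b11 stood at 109.7, 203 and 263 CPM in PP-MP 1, 2 and 3, against 310.0, 293 and 359 CPM in control 1, 2 and 3 (log2 fold change −0.74, SE 0.31, edgeR adjusted p = 0.36). Of the 12 other lipid droplet genes listed, 11 were tested and 9 had lower fitted values, with a median of −0.16. Among the 11 tested 0 passed the edgeR threshold, and 2 had an unadjusted p under 0.05, against 13.9% of all genes in either direction. Both were lower (Rdh10, a retinol dehydrogenase, at −0.53 and Plin3, a perilipin, at −0.38), and with DESeq2 Rdh10 was called (adjusted p = 0.021).

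Hal encodes histidine ammonia-lyase, which removes ammonia from histidine and forms urocanate. It lies on chromosome 10 and stood at 343, 271 and 293 CPM in PP-MP 1, 2 and 3, against 292, 266 and 283 CPM in control 1, 2 and 3. PP-MP 1 was the highest library and the rest lay between 266 and 293 CPM. Means were 302 ± 37.1 CPM in PP-MP and 280.4 ± 13.4 CPM in control (SD, n = 3 each), a log2 fold change of 0.11 (SE 0.15, 95% interval −0.25 to 0.47, edgeR adjusted p = 0.77). With library totals it was 0.34 (edgeR adjusted p = 0.32), again moved by the shift of 0.23 common to all genes, and the groups then did not overlap.

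The later enzymes of histidine breakdown also overlapped between the groups. Uroc1, Amdhd1 and Ftcd, which take urocanate on to glutamate, had a median log2 fold change of −0.09, with 0 of 3 at an unadjusted p under 0.05. Amdhd1 stood at 148, 152 and 142 CPM in PP-MP 1, 2 and 3, against 152, 149 and 159 CPM in control 1, 2 and 3 (log2 fold change −0.06, SE 0.12, edgeR adjusted p = 0.85). Ftcd, which hands the formimino group to tetrahydrofolate, differed by −0.09 (SE 0.15) on the log2 scale, and Uroc1, the urocanate hydratase, by −0.19 (SE 0.19).

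Sds encodes serine dehydratase, which turns serine into pyruvate and ammonia and is known to rise in fasting and with protein-rich food. It lies on chromosome 5 and stood at 179.8, 99.4 and 205 CPM in PP-MP 1, 2 and 3, against 160.2, 91.5 and 135 CPM in control 1, 2 and 3. Replicate 2 was the lowest library of both groups, and the groups overlapped. Means were 162 ± 55.2 CPM in PP-MP and 129 ± 34.8 CPM in control (SD, n = 3 each), a log2 fold change of 0.32 (SE 0.32, 95% interval −0.45 to 1.09, edgeR adjusted p = 0.67). Without control 2 the log2 fold change was 0.15, and without PP-MP 2 it was 0.58, so single libraries decided its size.

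Sdsl, the serine dehydratase-like gene, is the neighbour of Sds on chromosome 5 on the other strand and was far less abundant. It had 270, 133 and 294 counts in PP-MP 1, 2 and 3, against 33, 91 and 277 counts in control 1, 2 and 3. In CPM these were 2.68, 1.46 and 2.84 in PP-MP, against 0.455, 1.51 and 2.65 in control. Control 1 was the lowest of the 6 libraries, and an exact Poisson 95% interval of its 33 counts runs from 22.7 to 46.3, which covers counting error only. Means were 2.33 ± 0.754 CPM in PP-MP and 1.54 ± 1.10 CPM in control (SD, n = 3 each), a log2 fold change of 0.59 (SE 0.61, 95% interval −0.87 to 2.05, edgeR adjusted p = 0.68). It was 0.17 without control 1 and 1.28 without control 3.

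The log2 ratio of Sds to Sdsl counts within a library, which no scaling of libraries changes, was 6.07, 6.09 and 6.17 in PP-MP 1, 2 and 3, against 8.46, 5.92 and 5.68 in control 1, 2 and 3. The 3 PP-MP ratios were nearly equal and lay within the control range. Sds also shares exonic positions with Plbd2 and with Gm15690, both on the opposite strand. Of its 50-base words, 21.2% occur in another gene's transcripts when read on either strand, and Plbd2 shared the most of them. Plbd2, a phospholipase B-like gene, stood at 92.98 ± 12.2 CPM in PP-MP and 110.3 ± 17.5 CPM in control (SD, n = 3 each). Gm15690 stood at 1.32, 0.801 and 2.61 CPM in PP-MP 1, 2 and 3, against 0.510, 0.0995 and 0.0956 CPM in control 1, 2 and 3 (log2 fold change 2.75, SE 0.80, edgeR adjusted p = 0.25). All PP-MP values of this antisense model were above control, while those of Sds overlapped.

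Of 15 other genes of serine, threonine and glycine metabolism, 14 were tested and Tdh was not. With edgeR 0 passed the threshold, and 2 of the 14 had an unadjusted p under 0.05, against 13.9% of all genes in either direction. Both were lower without overlap, as were 9.79% of all genes. These were Srr, the serine racemase, with a log2 fold change of −0.48 (SE 0.18), and Gldc, the decarboxylase of the glycine cleavage system, with −0.37 (SE 0.15). With DESeq2 0 were called, and the list median was −0.22. Srr stood at 53.1, 77.7 and 66.5 CPM in PP-MP 1, 2 and 3, against 87.4, 86.0 and 103 CPM in control 1, 2 and 3.

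Gls2 encodes the liver-type glutaminase, which releases ammonia from glutamine close to the urea cycle. It lies on chromosome 10 and stood at 295, 228 and 288 CPM in PP-MP 1, 2 and 3, against 266, 263 and 279 CPM in control 1, 2 and 3. PP-MP 2 was the lowest and PP-MP 1 the highest of the 6 libraries, with control between them. Means were 270.1 ± 37.0 CPM in PP-MP and 269.5 ± 8.22 CPM in control (SD, n = 3 each), a log2 fold change of 0.003 (SE 0.16, 95% interval −0.37 to 0.37, edgeR adjusted p = 0.996). Spryd4, on the opposite strand, shares 97 exonic positions with it and stood at 21.4 ± 0.297 CPM in PP-MP and 21.4 ± 2.06 CPM in control.

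Glul, the pericentral enzyme that makes glutamine, gave log2 ratios of Gls2 to Glul of −0.93, −2.04 and −1.59 in PP-MP 1, 2 and 3, against −1.83, −1.33 and −1.96 in control 1, 2 and 3. The ratio overlapped between the groups. Of 14 other genes of glutamine and glutamate metabolism 13 were tested, and with edgeR 0 passed the threshold. Aldh4a1, which oxidises a proline breakdown product to glutamate, was the 1 gene with an unadjusted p under 0.05, at 163, 369 and 216 CPM in PP-MP 1, 2 and 3, against 564, 340.0 and 517 CPM in control 1, 2 and 3 (log2 fold change −0.93, SE 0.35). Its groups overlapped through PP-MP 2 and control 2.

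**Figure D2:**
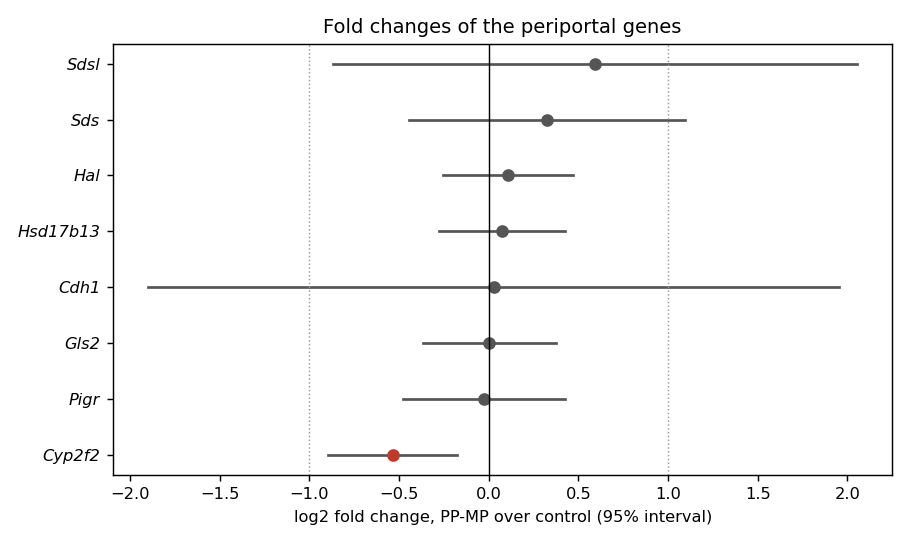
Log2 fold changes of the 8 genes, PP-MP over control, with 95% intervals from the edgeR fit. Dotted lines mark 2-fold and red marks the gene whose groups did not overlap. The Cyp2f2 interval of −0.90 to −0.17 is the one that does not cross 0, and those of Sdsl and Cdh1 are the widest of the 8.

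Pigr encodes the polymeric immunoglobulin receptor, which takes up IgA and IgM and delivers them into bile. The gene, on chromosome 1, stood at 1295, 1699.7 and 1287 CPM in PP-MP 1, 2 and 3, against 1285, 1566 and 1514 CPM in control 1, 2 and 3. The groups overlapped fully, and PP-MP 2 was the highest library. Means were 1427 ± 236 CPM in PP-MP and 1455 ± 149.8 CPM in control (SD, n = 3 each), a log2 fold change of −0.03 (SE 0.19, 95% interval −0.48 to 0.42, edgeR adjusted p = 0.96). With library totals, which shift all genes by a median of 0.23, it was 0.21 (edgeR adjusted p = 0.59).

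The chains that Pigr carries varied by library. Ighm, the IgM heavy chain, stood at 338, 57.6 and 0.928 CPM in PP-MP 1, 2 and 3, against 0.882, 1.13 and 0.899 CPM in control 1, 2 and 3. Igha, the IgA heavy chain, stood at 1.97, 16.9 and 1.23 CPM in PP-MP 1, 2 and 3, against 1.63, 0.730 and 0.621 CPM in control 1, 2 and 3. Ighm was high in PP-MP 1 and 2 and within the control range in PP-MP 3, and Igha was high in PP-MP 2. With edgeR 0 of the 4 chain genes passed the threshold (adjusted p = 0.24 for Ighm and 0.34 for Igha), and DESeq2 called these 2. The joining chain Jchain overlapped, at 42.4, 12.6 and 2.81 CPM in PP-MP 1, 2 and 3, against 28.1, 40.3 and 12.6 CPM in control 1, 2 and 3.

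Among 12 receptors and transcription factors known to raise Pigr, 0 passed the edgeR threshold, with 6 higher and 6 lower fitted values and a median of −0.01, and 1 had an unadjusted p under 0.05. Without overlap 3 of the 12 were lower and 1 was higher, against 9.79% of all genes lower and 22.0% in either direction. Among the 3 lower ones, Rela, a subunit of NF-kB, and Irf1, an interferon response factor, had log2 fold changes of −0.28 and −0.53. These 2 had edgeR adjusted p = 0.44 and 0.57.

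Cdh1 encodes E-cadherin, which joins epithelial cells and in the liver is found on periportal hepatocytes and on bile duct cells. The gene, on chromosome 8, stood at 6.46, 1.05 and 2.34 CPM in PP-MP 1, 2 and 3, against 1.76, 6.44 and 1.49 CPM in control 1, 2 and 3. PP-MP 1 and control 2 stood apart from the other 4 libraries at almost the same level. Means were 3.28 ± 2.82 CPM in PP-MP and 3.23 ± 2.78 CPM in control (SD, n = 3 each), a log2 fold change of 0.03 (SE 0.81, 95% interval −1.90 to 1.96, edgeR adjusted p = 0.99). The log2 fold change was −0.92 without PP-MP 1 and 1.05 without control 2, and 0.06 without both.

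Bile duct markers were low in every library. The sum of 11 such markers was 34.1, 31.3 and 21.6 CPM in PP-MP 1, 2 and 3, against 28.0, 43.6 and 32.5 CPM in control 1, 2 and 3. Krt19, a keratin of bile duct cells, stood at 3.14, 0.757 and 0.416 CPM in PP-MP 1, 2 and 3, against 0.262, 0.962 and 0.392 CPM in control 1, 2 and 3, and Cftr, a chloride channel, had 0 counts in control 1 and control 3. The highest Krt19 value of each group was thus in the library with the highest Cdh1 value, and the part of bile duct cells in Cdh1 was not tested. With edgeR 0 of the 9 markers tested passed the threshold, and 1 had an unadjusted p under 0.05.

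Cdh2, the N-cadherin that hepatocytes also carry, was more abundant in counts and steadier. Cdh2 stood at 68.4, 82.1 and 76.2 CPM in PP-MP 1, 2 and 3, against 71.8, 102 and 96.5 CPM in control 1, 2 and 3. The log2 ratio of Cdh1 to Cdh2 counts was −3.41, −6.28 and −5.03 in PP-MP 1, 2 and 3, against −5.35, −3.98 and −6.02 in control 1, 2 and 3, with overlap. Of 8 adherens junction partners, with 2 higher and 6 lower fitted values, 0 passed the edgeR threshold, and Afdn (afadin, which links nectins to actin) had an unadjusted p under 0.05 (log2 fold change 1.51, SE 0.58). Afdn was above control in every PP-MP library, from 5.56 to 16.1 CPM in PP-MP against 1.36 to 4.44 CPM in control.

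Compared per length, as counts per kilobase of exonic sequence scaled to the same sum in each library, Pigr and Cyp2f2 were the most abundant of the 8. Pigr was at 633 ± 166 in PP-MP and 520 ± 32.0 in control, and Cyp2f2 at 419 ± 35.5 in PP-MP and 498 ± 72.5 in control (SD, n = 3 each). The ranges of these 2 overlapped in control and not in PP-MP. Next came Hsd17b13 at 225 ± 29.7 in PP-MP and 174 ± 3.29 in control. Sds, at 165 ± 44.9 in PP-MP and 111 ± 33.9 in control, and Gls2, at 136 ± 8.11 in PP-MP and 112 ± 4.80 in control, overlapped each other in both groups. Hal was at 95.9 ± 8.88 in PP-MP and 73.0 ± 6.45 in control, below Gls2 without overlap. Sdsl, at 2.69 ± 0.686 in PP-MP and 1.45 ± 1.001 in control, and Cdh1, at 1.23 ± 1.03 in PP-MP and 1.01 ± 0.850 in control, were the least abundant and overlapped. These levels carry no TMM factors, so they order genes within a group and do not compare the diets.

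The genes differed in how much they varied between libraries. The spread from the lowest to the highest library was 0.32 to 0.40 on the log2 scale for Hsd17b13, Hal, Gls2 and Pigr, 0.72 for Cyp2f2, 1.17 for Sds and 2.59 for both Sdsl and Cdh1. In the 95% intervals of the fold change, 5 of 8 genes lay within 2-fold, against 46.3% of all genes tested. Hal and Gls2 had the most similar pattern of any 2 of the 8, with a root mean square difference of 0.10 on the log2 scale over the 6 libraries after centring. Sdsl and Cdh1 had the least similar pattern (1.17). The measure is not scaled to a gene's spread, so genes that vary little come out close and genes that vary widely can come out far apart. This ranking therefore largely follows the spreads given above.

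The genes nearest in pattern were sought among 11360 named genes by the same measure. For Cyp2f2 they were Papss1, which makes the sulfate donor PAPS (difference 0.029), and the kinase gene Gsk3b (0.061). Papss1 stood at 6.53, 6.10 and 5.99 CPM in PP-MP 1, 2 and 3, against 9.75, 8.26 and 9.36 CPM in control 1, 2 and 3. For Sdsl they were Lpin1, a phosphatidate phosphatase (0.098), and Casc3 (0.32). Lpin1 stood at 26.2, 12.5 and 28.5 CPM in PP-MP 1, 2 and 3, against 4.19, 12.9 and 25.6 CPM in control 1, 2 and 3, and so was also lowest in control 1. For Cdh1 they were Mrps31, a mitochondrial ribosomal protein gene (0.32), and Supt20 (0.37), both of which were highest in PP-MP 1 and control 2. Mrps31 stood at 18.2, 5.74 and 7.90 CPM in PP-MP 1, 2 and 3, against 5.41, 20.2 and 6.20 CPM in control 1, 2 and 3. Fancc and Cdip1 were nearest to Sds (0.16 and 0.17). The 2 nearest genes of Hsd17b13, Hal, Gls2 and Pigr, which varied little, were Brap and Dync2i1, C1ra and Ambp, Ppib and Rpsa, and Phf6 and Nap1l4.

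**Figure D3:**
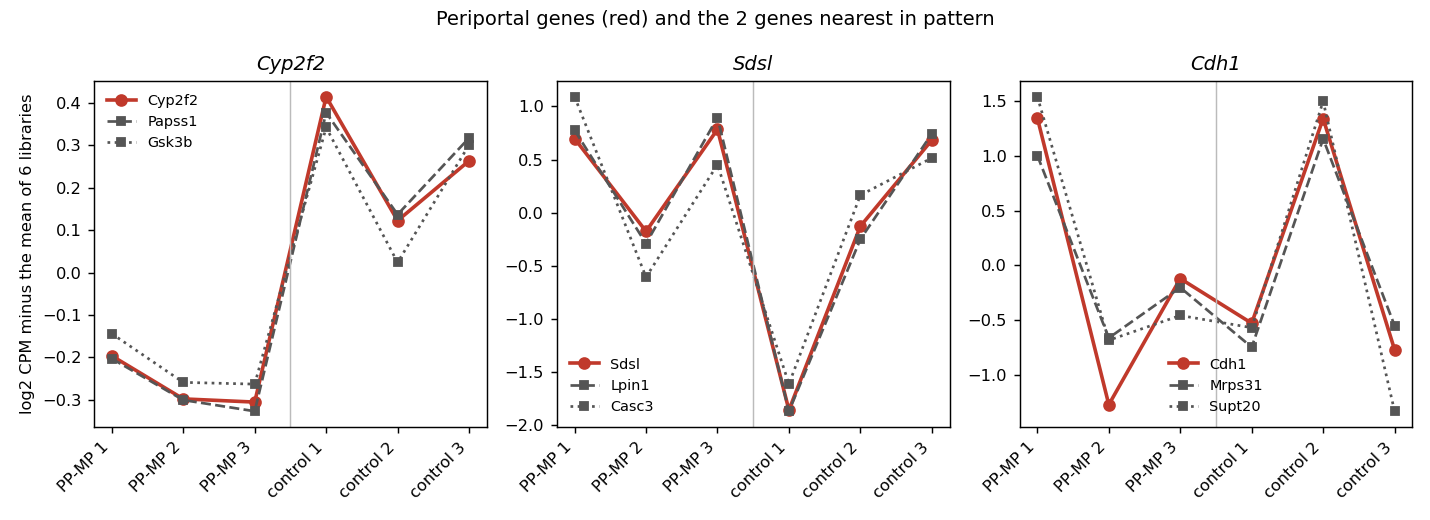
Log2 CPM of Cyp2f2, Sdsl and Cdh1 (red) and of the 2 genes nearest in pattern (grey), minus each gene's mean of the 6 libraries, with PP-MP left of control. Cyp2f2 separates the diets, Sdsl is lowest in control 1, and Cdh1 is highest in PP-MP 1 and control 2.

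Other genes known as periportal gave the same count of calls. Of 17 such genes 0 passed the edgeR threshold, and 11 had higher and 6 lower fitted values. The median log2 fold change was 0.04, against 0.05 for the 8 genes and 0.03 for all genes tested. A mean of at least 100 CPM was reached by 13 of the 17, and the median of all genes at that level was −0.18. For Apoa1 and Ctsc, both higher, the unadjusted p was under 0.05, against 13.9% of all genes in either direction. With DESeq2 Apoa1 was called. Apoa1, the main protein of HDL, stood at 9670.0, 3559 and 7457 CPM in PP-MP 1, 2 and 3, against 1165, 1191 and 3693 CPM in control 1, 2 and 3 (log2 fold change 1.77, SE 0.58, edgeR adjusted p = 0.30). Its groups overlapped through PP-MP 2 and control 3. On the log2 scale Ctsc, a lysosomal protease, differed by 0.71 (SE 0.29, edgeR adjusted p = 0.35) and Tat, which begins tyrosine breakdown, by 0.57 (SE 0.25, edgeR adjusted p = 0.38), both with overlap. Groups did not overlap for 1 of the 17, Pck1, against 22.0% of all genes in either direction. Pck1 was higher, at 3065, 2714 and 3782 CPM in PP-MP 1, 2 and 3, against 2305, 2696 and 1260 CPM in control 1, 2 and 3 (log2 fold change 0.61, SE 0.31, edgeR adjusted p = 0.43). PP-MP 2 was only just above control 2.

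Of 23 pericentral genes 0 passed the edgeR threshold, 5 had higher and 18 lower fitted values, and the median log2 fold change was −0.19. That median is close to the −0.18 of all genes with a mean of at least 100 CPM, a level that 13 of the 23 reached, and lies below the 0.03 of all genes tested. Cyp2a5, a coumarin-oxidising P450, stood at 416, 585 and 569 CPM in PP-MP 1, 2 and 3, against 1024, 714 and 1971 CPM in control 1, 2 and 3 (log2 fold change −1.24, SE 0.39, edgeR adjusted p = 0.28, DESeq2 adjusted p = 0.043). On the log2 scale Rgn, a lactonase of vitamin C synthesis, differed by −0.73 (SE 0.27, edgeR adjusted p = 0.33) and the xenobiotic receptor gene Ahr by 0.58 (SE 0.18, edgeR adjusted p = 0.29), both without overlap. The summed level of the 23 genes was 8191 CPM in PP-MP 1, below all other libraries, and 15292 and 15201 CPM in PP-MP 2 and 3, against 12813 to 19650 CPM in control. The difference between the zone lists was not tested.

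**Figure D4:**
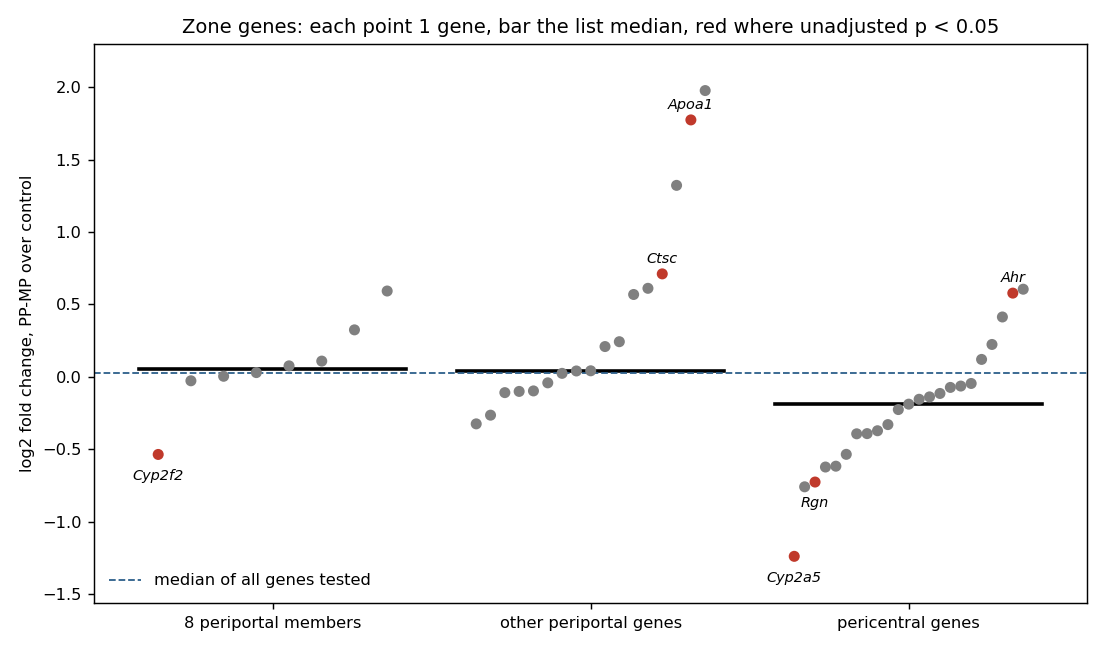
Log2 fold changes, PP-MP over control, of the 8 periportal genes, 17 other periportal genes and 23 pericentral genes. Each point is 1 gene, red where the unadjusted edgeR p is under 0.05, the black bar is the list median (0.05, 0.04 and −0.19 from left to right), and the dashed line is the median of all genes tested (0.03), while that of the genes with at least 100 CPM is −0.18.

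Cyp2f2 and Cyp2e1, a P450 of alcohol metabolism, are widely used as markers of the opposite zones. The log2 ratio of Cyp2f2 to Cyp2e1 counts was −2.76, −3.93 and −3.84 in PP-MP 1, 2 and 3, against −3.72, −2.91 and −3.49 in control 1, 2 and 3. PP-MP 1 had the highest ratio of all libraries and the other PP-MP libraries the lowest, so the groups overlapped. Cyp2e1 stood at 3413, 7145 and 6716 CPM in PP-MP 1, 2 and 3, against 10162, 4733 and 7782 CPM in control 1, 2 and 3 (log2 fold change −0.39, SE 0.39, edgeR adjusted p = 0.67).

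Hormone signals that act on Sds, Gls2 and Hal were represented by 12 regulators, of which 0 passed the edgeR threshold and 9 had higher fitted values (median 0.29). Gcgr, the glucagon receptor, was the 1 with an unadjusted p under 0.05, at 185.7, 248 and 249 CPM in PP-MP 1, 2 and 3, against 185.5, 146 and 175 CPM in control 1, 2 and 3 (log2 fold change 0.43, SE 0.18, edgeR adjusted p = 0.36). PP-MP 1 was only just above control 1. Ppargc1a, a coactivator of fasting genes, differed by 0.68 (SE 0.34) on the log2 scale and Irs2, an insulin receptor substrate, by 0.42 (SE 0.26), both with overlap.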

How the data were processed

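Poly(A)-selected, directional liver RNA libraries were sequenced, per the labels' protocols. The authors deposited raw read counts per gene symbol, and their 6 per-sample files are identical to the columns of the series table. Per the submitters' processing notes, bcl2fastq was used and the build was GRCm39. For the aligner, counting tool, strand setting and annotation the sources used here give no name.

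Counts were filtered with filterByExpr, scaled with TMM factors and compared with edgeR 4.0.16 in R 4.3.3 (glmQLFit, robust, and glmQLFTest, two-sided). Benjamini-Hochberg adjustment covered 18284 genes, with calls at 0.05. Standard errors and intervals come from that fit. DESeq2 1.42.0, limma-voom (limma 3.58.1), other scalings and filters, a replicate block and left-out libraries were alternatives. Exact permutation of 3 against 3 cannot go below 0.1 two-sided and was not used. Log2 CPM for patterns used a prior count of 2, and neighbours had a mean of at least 1 CPM, the 2 nearest per gene being named. At most 3 genes of smallest p are named from each of 21 other lists, besides the genes of the count ratios; the overlapping gene models, and further list genes named singly, were chosen after their values were seen. Some genes this rule picks are not reported here. Members and lists were chosen with earlier results of these data known. The remaining lists, of endothelial, stellate, B, T and pancreatic cells, had 0 calls with edgeR or DESeq2, and at an unadjusted p under 0.05 they held 1 B cell and 2 T cell genes, all lower. Of 5 pancreatic genes 4 had 0 counts in every library.

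Lengths were looked up by symbol in GENCODE M21 (GRCm38), as were overlaps and 50-base words shared on either strand. It gave a length for 89.5% of rows, holding at least 88.0% of counts, and no gene coordinates are given because the builds differ. No 2 libraries of a group were duplicates (chi-square per degree of freedom 154 to 928). On simulated data 17828 genes were tested, of which 200 were changed: for PP-MP against control 0% of 67 genes were found at a 1.5-fold change, 4.48% of 67 at 2-fold and 69.7% of 66 at 4-fold, with 4 false calls among 53. Sums and figures were made in Python 3.11.15 (SciPy 1.17.1; pandas 2.3.3; matplotlib 3.10.9).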

Additional observations from a re-analysis of the deposited data

How the results depend on the processing

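Over 15 alternatives for each gene, Cyp2f2 kept a lower value throughout, from −0.64 to −0.31 on the log2 scale, with adjusted p from 0.016 to 0.53. DESeq2 called it and was the 1 alternative that called any of the 8 genes (1 gene). Hsd17b13, Sds and Sdsl kept their direction in all alternatives. The direction of Gls2 turned with DESeq2 size factors in edgeR (−0.016), the replicate block (−0.0057), limma-voom (−0.0059), DESeq2 (−0.016), and without control 2 and PP-MP 1 together (−0.080). That of Pigr turned with library totals (0.21), no filter on low counts (0.013), a mean CPM of at least 1 (0.0062) and without control 2 and PP-MP 1 (0.095), and that of Hal in the last of these (−0.030). When 1 library was left out, Gls2 ranged from −0.064 to 0.11, Pigr from −0.17 to 0.042 and Cdh1 from −0.92 to 1.05. With library totals 0 of the 8 genes had an unadjusted p under 0.05, and 3 had groups that did not overlap, against 27.1% of all genes under that scaling. The turns with DESeq2, with its size factors, with library totals and with the other filters follow the shift of all genes under those settings, whose median was −0.019 (DESeq2 and its size factors), 0.23 (library totals), 0.041 (no filter) and 0.034 (mean CPM of at least 1). The cause of the other turns was not tested.

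The count of all genes called was 2 in the main test, 1 with library totals, 1 with limma-voom, 0 with the replicate block and 777 with DESeq2, and 0 to 92 when 1 library was left out, with 92 without control 2. Samples with the same number showed no clear sign of pairing (correlations of their deviations −0.0662, −0.0872 and 0.0470). Those of samples with different numbers ran from −0.072 to 0.12. With 3 samples per group such correlations cannot decide whether samples were paired. The replicate block gave Cyp2f2 a log2 fold change of −0.53 and called 0 of the 8 genes. With 3 libraries per group, changes of 1.5-fold were never recovered on simulated data, and those of 2-fold rarely. Sdsl and Cdh1 had 33 to 652 counts per library, and their libraries differed by more than counting error, with exact Poisson 95% intervals for Cdh1 of 603 to 704 counts in PP-MP 1 and 77.8 to 117 in PP-MP 2.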
